A study of Mus musculus with 26 samples.

Results

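Assays C61 and B95 are 2 of the 315 positions of a mouse microRNA panel, and both were chosen from the measured values. C61 was chosen because it was higher in every activin-treated sample of induced pluripotent stem cells (iPSC), and B95 because it read differently in the 2 treated clones. The panel was read by quantitative PCR after reverse transcription from stem-loop primers, which bind the end of a mature miRNA. Its value is the threshold cycle (Ct), and a higher Ct means less RNA.

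MicroRNAs are short RNAs that lower the translation and stability of the messages they pair with. Pluripotent cells carry a set of miRNAs that is shut off on differentiation, and differentiated tissues switch on sets of their own. Activin A is a TGF-beta family ligand that signals through SMAD proteins, and it is used in culture to direct pluripotent cells towards endoderm, the germ layer of liver and pancreas. The files give assays by plate position, of which 0 matched a miRNA name in the RefSeq tables, so that no miRNA name, sequence or function is given for C61 or B95, and the labelled cell types could not be checked against named markers.

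The 26 samples held 4 of activin-treated iPSC, 2 of clone 3 and 2 of clone 2, and 5 of untreated iPSC, each a different clone from mouse tail-tip fibroblasts. They also held 3 samples each of adult primary hepatocytes and of pancreatic islets, both from C57BL/6 mice, 3 samples of D3 and 3 of R1, which are lines of embryonic stem cells (ESC), and 5 of tail-tip fibroblasts. Untreated iPSC and ESC were kept on inactivated embryonic feeder fibroblasts in serum replacement with leukemia inhibitory factor, while treated cells were freed of feeders and kept on gelatin in low-serum medium with activin A at 100 ng/ml for 5 days (the sample labels give ng/ul). Activin, medium and feeder removal therefore went together and cannot be told apart. Outside the iPSC clones, separate cultures or animals are not named in the labels, so p-values cover only the spread among the samples at hand, and that spread may be technical. Samples had between 187 and 276 assays with a Ct below 35, and 11.6% of all values had no Ct.

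C61 was a moderate signal in pluripotent cells, a strong one after activin and no signal below Ct 35 in the differentiated cells. In treated cells its Ct was 22.1 and 23.1 in the clone 3 duplicates and 27.3 and 24.1 in the clone 2 duplicates, against 29.4, 29.5, 30.1, 30.7 and 33.7 in the 5 untreated clones. The treated and the untreated samples did not overlap, and the distance between the nearest samples was set by replicate 1 of treated clone 2. In these bulk samples, a change in the number of cells that hold an miRNA and a change in its amount per cell cannot be told apart. The 3 hepatocyte samples had no Ct. Of the islets, replicate 1 read 38.4 and the other 2 had no Ct. Among fibroblasts, replicate 4 read 38.8 and the other 4 had no Ct. ESC read close to untreated iPSC, with 30.2, 29.6 and 28.5 in D3 and 29.3, 28.8 and 28.2 in R1.

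B95 was a strong signal in most samples and was missing in 4, among them both treated clone 2 duplicates. In treated cells it had a Ct of 22.1 and 20.3 in the clone 3 duplicates and none in either clone 2 duplicate, against 20.9 to 22.9, with a median of 22.1, in the 5 untreated clones. Hepatocytes read 21.1, 21.2 and 21.6, and islets 24.2, 26.2 and 26.2. In ESC, D3 replicates 1 and 2 read 23.1 and 25.2 and replicate 3 had no Ct, while R1 replicates 1 and 3 read 23.8 and 21.3 and replicate 2 had no Ct. Fibroblasts spanned 21.2 to 27.1, with a median of 23.1. In the 22 samples with a Ct, B95 thus lay between 20.3 and 27.1, and every other sample had no Ct at all.

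**Figure D1:**
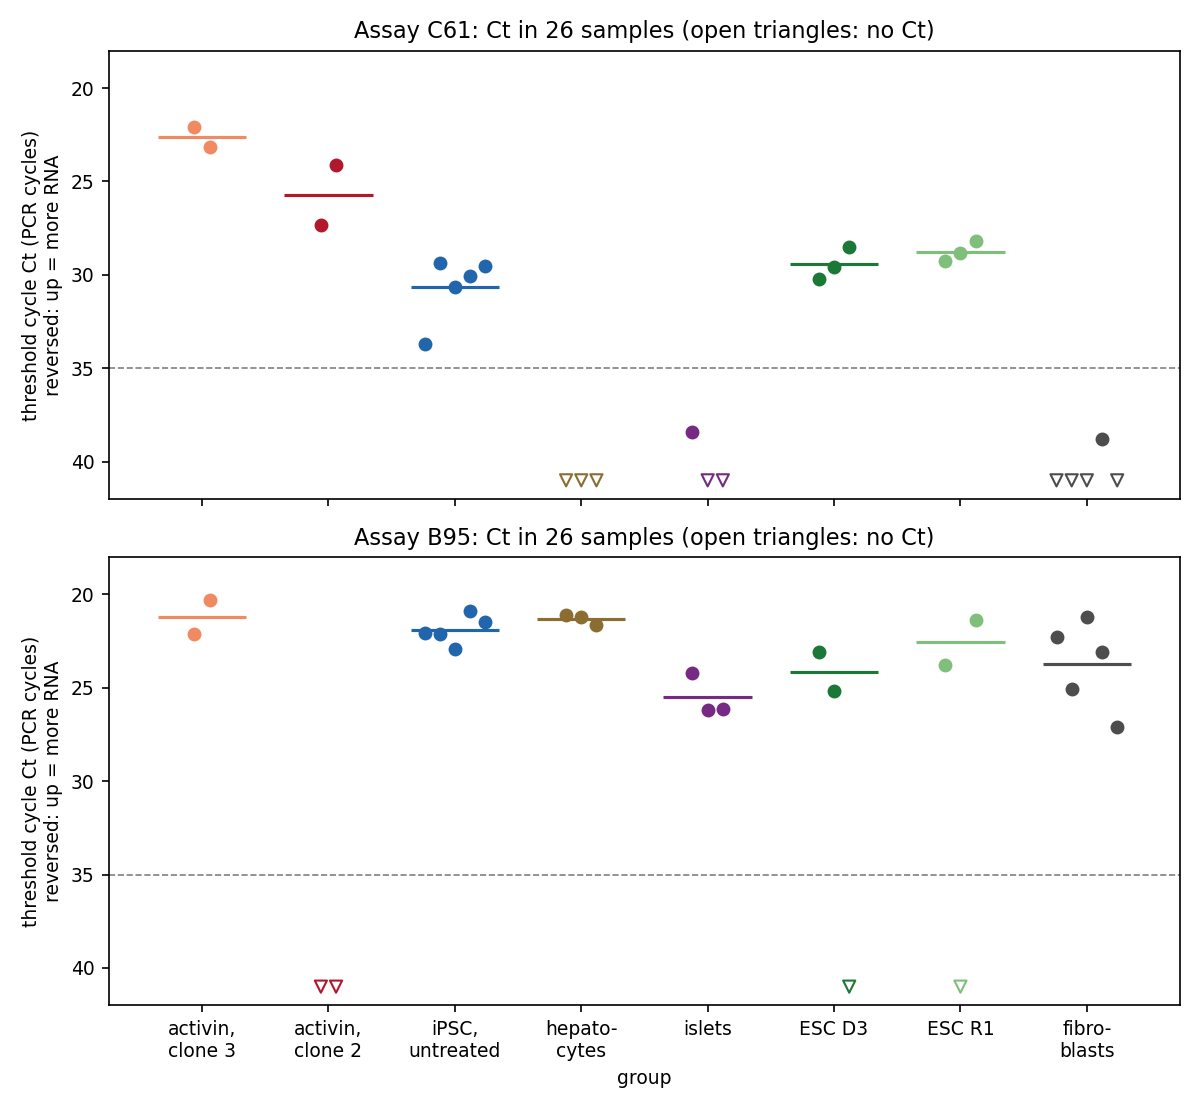
Ct of C61 (upper panel) and B95 (lower panel) in each of the 26 samples by group, on a reversed axis in PCR cycles, with points for samples, bars for group means over the samples with a Ct, open triangles for samples without one and a dashed line at the limit of 35. C61 lies between 22.1 and 27.3 in the 4 treated samples and has no Ct below 35 in hepatocytes, islets or fibroblasts, and B95 lies between 20.3 and 27.1 in 22 samples and has no Ct in 4.

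The activin contrast chose C61, so its values there are a description without a test. Log2 expression is given relative to the mean Ct of the panel assays that read below 35 in all 26 samples, taken within the position set of the assay (A with B, C, or D). On this scale C61 stood at 2.24 and 1.80 in the treated clone 3 duplicates and at -1.18 and 1.05 in those of clone 2, against -5.26 to -3.20 in the untreated clones. With the duplicates averaged per clone, treated minus untreated cells came to 5.07 on the log2 scale, where the pooled SD within groups was 0.986. Of 284 assays, 10 (3.52%) had all 4 treated samples above all 5 untreated ones, and C61 was among them by its choice. In raw Ct the averaged difference was -6.51 cycles. The mean Ct of set C, to which C61 belongs, was itself lower in treated cells, at 25.1 ± 0.761 (SD, n = 4 samples of 2 clones), than in untreated cells, at 26.6 ± 1.33 (SD, n = 5).

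The 2 clones with a treated and an untreated sample gave the same direction for C61. In clone 3 the treated duplicates exceeded the untreated sample by 5.43 and 4.99 on the log2 scale, and in clone 2 by 2.46 and 4.68. The response of clone 3 minus that of clone 2 was 1.65, and it was 0.53 without replicate 1 and 2.76 without replicate 2 of treated clone 2, so that its size rested on single samples. Relative to RNU6, a small nuclear RNA and the normalizer named in the labels, the 4 differences were 18.14 and 6.30 in clone 3 and 3.75 and 4.29 in clone 2. The value of 18.14 belongs to replicate 1 of treated clone 3, whose recovered RNU6 in set C was 8.22 cycles on a relative scale, where the other treated samples stood between -2.55 and 0.38. In sets A and B the recovered RNU6 of the same sample was -0.16. Relative to RNU6 the treated minus untreated difference of C61 was 8.62, and it was 5.66 without that sample. The authors' deposited table lists 8.62 for untreated against treated cells, in a column whose positive sign stands for less RNA in untreated cells. RNU6 was recovered from that table, so the equal size follows from the recovery.

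B95 showed no common direction under activin. In clone 3 the treated duplicates differed from the untreated sample by -0.04 and 0.85 on the log2 scale relative to the mean Ct, and by 1.51 and 2.57 relative to RNU6. In clone 2, whose untreated sample had a Ct of 22.1, no difference can be formed from the treated duplicates, since neither had a Ct. With these set to the limit of 35, the response of clone 3 minus that of clone 2 was 13.84 relative to the mean Ct, a size fixed by the limit. Over both clones, treated minus untreated cells came to -7.43 with the limit and to -0.49 with the missing values left out. The authors' deposited table lists 0.87 for untreated against treated cells, which by its sign convention is more RNA in treated cells. This value equals the difference of means over the samples that had a Ct, so that clone 3 alone stands for treated cells in it.

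**Figure D2:**
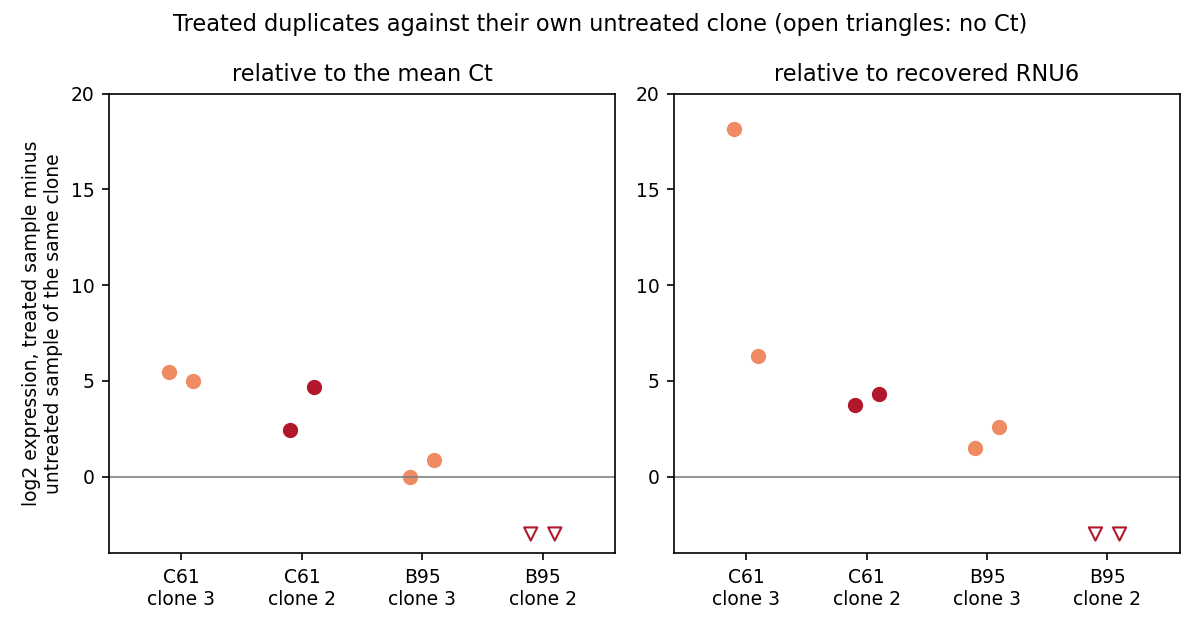
Log2 expression of each treated sample minus the untreated sample of its own clone, for C61 and B95, relative to the mean Ct (left) and to the recovered RNU6 (right). Points are single treated samples and open triangles, placed at an arbitrary height, are treated samples without a Ct. C61 was above its untreated clone in all 4 treated samples on both scales, and 1 sample of clone 3 stands at 18.14 relative to RNU6.

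Samples that played no part in choosing the assays allowed 7 comparisons between fibroblasts, ESC, islets and hepatocytes, several of which share samples. Of these, B95 passed the filter in 7 and C61 in 4. C61 did not pass where neither group had a Ct below 35, as in hepatocytes against islets and in each of these tissues against fibroblasts.

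C61 read below 35 in all 6 ESC samples and in no sample of the 3 differentiated cell types, so it passed the filter through ESC alone. The direction of the 3 differences below followed from this and from the limit, and their p-values are no separate support for it. Relative to the mean Ct, C61 was at -3.19 to -1.41 in the 6 ESC samples, and at the limit it was at -6.40, -7.25 and -5.77 in hepatocytes, at -9.13, -8.38 and -7.68 in islets and at -11.36 to -5.68 in fibroblasts. None of these groups overlapped ESC. The limit is an upper bound on the level in a sample that lacks a Ct, and this bound is higher in samples with a higher mean Ct, such as fibroblast replicate 5. The spread of values at the limit is only that of the mean Ct of set C (SD 2.28 in fibroblasts, 0.729 in islets and 0.741 in hepatocytes). The SE and p-values below thus do not measure the spread of C61 in those cells. ESC minus fibroblasts was 6.98 (SE 0.842, limma adjusted p = 7.93e-06, 6 against 5 samples), in a comparison that called 48.9% of 276 assays and had a median difference of 0.71 over all of them. The two-sided exact permutation p over these samples was 0.00216, the smallest that this design allows. Islets minus ESC was -6.00 (SE 0.987, limma adjusted p = 0.000198), with 40.7% of 295 assays called and a median of 0.14. Hepatocytes minus ESC was -4.08 (SE 0.984, limma adjusted p = 0.00258), with 57.0% of 279 assays called and a median of -0.83.

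These sizes depend on the limit. With the limit at 32, hepatocytes minus ESC was -1.08 and no longer passed (limma adjusted p = 0.356), and with the limit at 40 ESC minus fibroblasts was 11.75. The mean Ct of set C was 28.5 ± 0.741 (SD, n = 3) in hepatocytes and 26.7 ± 0.846 (SD, n = 6) in ESC, which moves the bound for hepatocytes towards ESC. In raw terms, 5 of 315 assays (1.59%) had a Ct below 35 in all 6 ESC samples and in none of the other 11. These were C61, C67, C11, C13 and B71, of which C11, C13 and B71 were named after their values were seen.

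Between the ESC lines, C61 was at -2.81 ± 0.629 in D3 and at -1.99 ± 0.774 in R1 (SD, n = 3 each). The difference of -0.82 had a 95% interval from -3.24 to 1.61, and the limma adjusted p was 1.00. B95 differed by -1.86, with an interval from -7.94 to 4.21, and each line had 1 sample without a Ct. Limma called 0 of 273 assays here (0%), with 5 at an unadjusted p under 0.05. Leaving out 1 sample moved the B95 difference between -5.76, without R1 replicate 2, and 1.83, without D3 replicate 3, and its sign also turned without R1 replicate 3 (0.54).

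In order of its level relative to the mean Ct, C61 was highest in treated clone 3, at 2.02 ± 0.311 (SD, n = 2), then in treated clone 2, at -0.06 ± 1.57 (SD, n = 2), in ESC and in untreated iPSC, at -4.09 ± 0.904 (SD, n = 5). Neighbours in that order did not overlap except the ESC lines, but the highest untreated clone, at -3.20, lay next to the lowest D3 sample, at -3.19. Untreated iPSC minus ESC was -1.69, and untreated iPSC minus fibroblasts was 5.29 with the fibroblasts at the limit. With RNU6 as the reference the value against fibroblasts was 2.75, and with the limit at 32 it was 2.63 on the mean Ct scale. The authors' deposited table lists -5.63 for iPSC against fibroblasts, which by its sign convention is more RNA in iPSC, and only fibroblast replicate 4 had a Ct of C61. No order can be given among hepatocytes, islets and fibroblasts, which have only bounds.

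The assays closest to C61 in pattern over all 26 samples were C29, C67 and C74. Over all 26 samples the Pearson r of log2 expression with C61 was 0.979 for C29, 0.966 for C67 and 0.892 for C74, among 267 assays with a Ct below 35 in at least 13 samples, whose median r was 0.12. Over the 17 samples not used to choose C61, r was 0.973, 0.990 and 0.862. These 17 are among the 26 samples by which the 3 assays were picked, so they are no separate check. All 3 lie in position set C and so share its reference with C61, and samples at the limit then take the same value for each assay. Over the 15 samples with both assays below 35, r was 0.977 for C29 and 0.831 for C67, and over 14 samples it was 0.684 for C74. These samples were ESC and the treated and untreated iPSC whose contrast chose C61. Over the 6 ESC samples alone, r was lower, at 0.795 for C29, 0.472 for C67 and 0.372 for C74.

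C29 and C67 were picked by their likeness to C61 over samples that include the treated and untreated iPSC, so their values under activin are a description too. Both had a lower Ct in all treated samples than in any untreated clone. C29 had a Ct of 20.6 and 21.4 in treated clone 3 and of 25.4 and 22.6 in treated clone 2, against 27.3 to 31.2 in the 5 untreated clones. C67 had a Ct of 22.1 and 23.8 in treated clone 3 and of 25.5 and 23.0 in treated clone 2, against 25.99, 27.9, 30.1, 30.3 and 30.8 in the untreated clones. The lowest untreated clone thus lay close to replicate 1 of treated clone 2 for C67. Both were below 35 in all 6 ESC samples and in none of 5 fibroblast samples, and C29 read 31.2 in 1 of 3 hepatocyte samples. Replicate 1 of treated clone 2 had the highest Ct of the 4 treated samples for all 3 assays. C74 was weaker, with 26.5 to 30.4 in treated cells and 30.3 to 31.8 in the 4 untreated clones with a Ct, and it was below 35 in 4 of 5 fibroblast samples.

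**Figure D3:**
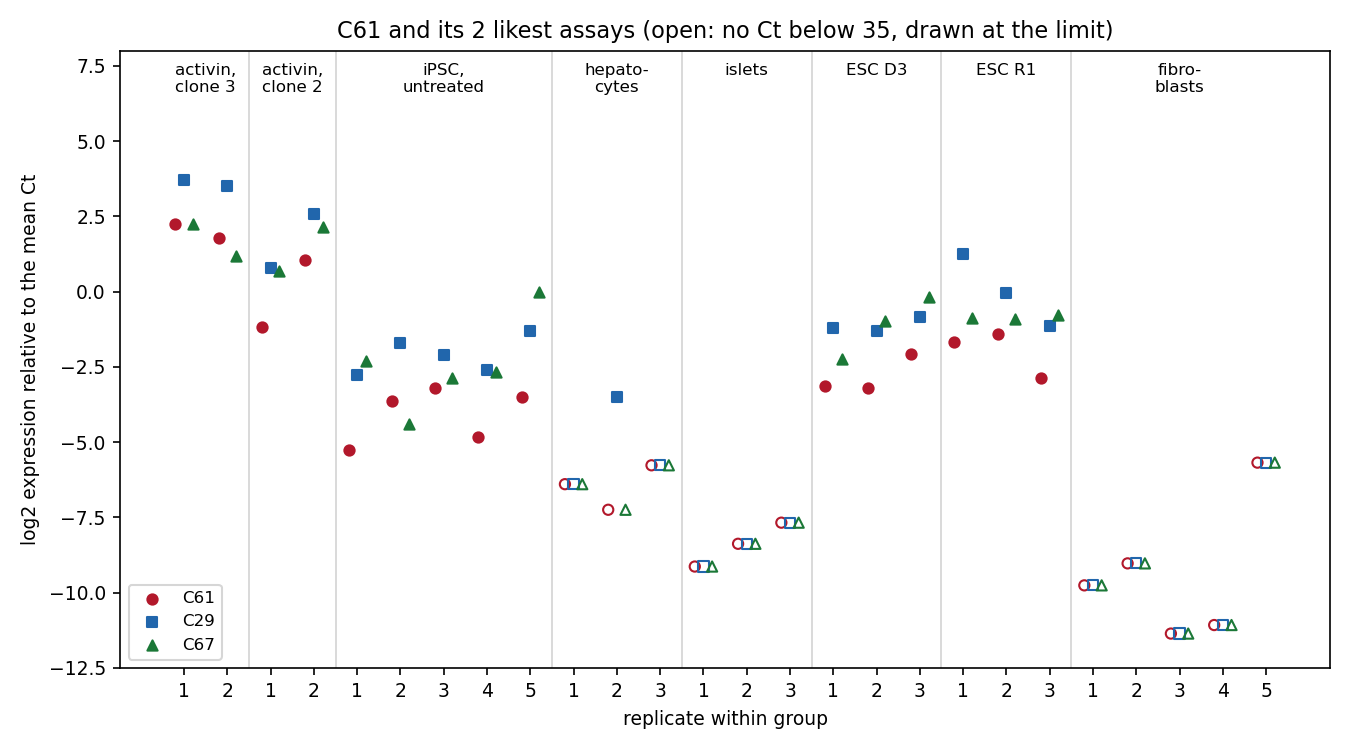
Log2 expression relative to the mean Ct of set C for C61 and the 2 assays most like it, C29 and C67, in each of the 26 samples by group, with filled symbols for a Ct below 35 and open symbols at the limit. Each assay is higher in the 4 treated samples than in the 5 untreated clones, and in differentiated cells all values but 1 of C29 in hepatocytes stand at the limit, where the assays coincide.

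The neighbouring positions did not share the pattern of C61. C60 read 31.6 to 35.9 in treated cells and 31.6 to 35.2 in the 4 untreated clones with a Ct, and C62 read 27.0 to 29.3 in treated cells and 28.8 to 32.7 in the 4 untreated clones with a Ct, so that the groups overlapped for both. Both read below 35 in all 3 islet samples, and in fibroblasts C60 did so in 3 of 5 samples and C62 in 4 of 5, where C61 had none below 35. In hepatocytes C60 and C62, like C61, had no Ct below 35.

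For B95 the tests turned on how its missing values were treated. With missing values at the limit, ESC minus fibroblasts was -2.25 (SE 2.11, limma adjusted p = 0.401). It was -0.58 without D3 replicate 3, -0.87 without R1 replicate 2 and -3.40 without R1 replicate 3, and did not pass in any of these. With missing values left missing, the same difference was 1.55 (SE 0.605, limma adjusted p = 0.0453), with 4 of 6 ESC samples in it, and so of the opposite sign. In islets against ESC the difference was -0.26 (SE 2.47, limma adjusted p = 0.935) at the limit and -4.05 (SE 0.681, limma adjusted p = 0.00034) with missing values left missing. At the limit it ran from -1.92 without D3 replicate 3 to 0.89 without R1 replicate 3, so that its sign was not settled. In hepatocytes against ESC it was 4.77 (SE 2.46, limma adjusted p = 0.110) and 0.97 (SE 0.685, limma adjusted p = 0.232). The samples ESC D3 replicate 3 and ESC R1 replicate 2 alone set these gaps, since hepatocytes, islets and fibroblasts all had a Ct.

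Among the differentiated cells, where B95 had a Ct in every sample, its level relative to the mean Ct was ordered hepatocytes, fibroblasts, islets. Relative to the mean Ct it was at 4.41, 5.65 and 5.24 in hepatocytes, at 0.55, -0.65 and 0.34 in islets and at 1.69 to 3.42 in fibroblasts, and no 2 of these groups overlapped. Hepatocytes minus fibroblasts was 2.52 and islets minus fibroblasts -2.50. In the fit shared with ESC, whose 2 samples at the limit widen the common spread, neither passed (SE 2.55 each, limma adjusted p = 0.450 with 44.3% of 262 assays called, and 0.463 with 36.6% of 279 called). In a fit on the groups compared alone the SE was 0.642 for hepatocytes and 0.659 for islets, and the limma adjusted p was 0.0154 and 0.0239. The two-sided exact permutation p was 0.0179 for each, the smallest that 3 against 5 samples allow. On other scales groups did overlap. In raw Ct, fibroblasts, at 21.2 to 27.1, overlapped both hepatocytes and islets. Relative to RNU6, hepatocytes, at -23.42 to -20.98, overlapped islets, at -26.95 to -21.75. The share of all assays that separate these groups relative to the mean Ct was not counted.

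Hepatocytes against islets is the comparison of endodermal tissues for which RNU6 could be used. Relative to RNU6, hepatocytes minus islets was 1.81 for B95 (SE 1.56, 95% interval -1.53 to 5.14, limma adjusted p = 0.367), where 34.4% of 276 assays were called and the median difference over all of them was -3.42, so that B95 stood above that median. Relative to the mean Ct it was 5.02 (SE 0.699, limma adjusted p = 0.00044), and with quantile normalization 3.94 (limma adjusted p = 0.00255). The recovered RNU6 of sets A and B was 0.13, -1.91 and -1.79 cycles on a relative scale in hepatocytes and -0.07, -0.76 and 4.40 in islets. Without islet replicate 3, the sample with 4.40, the difference relative to RNU6 was 3.09, while it was 0.49 without islet replicate 2 and 1.04 without hepatocyte replicate 1. The authors' deposited table lists 1.81 for islets against hepatocytes, which by its sign convention is less RNA in islets, and it lists no value for C61. Here too the equal size follows from the recovery of RNU6 from that table.

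**Figure D4:**
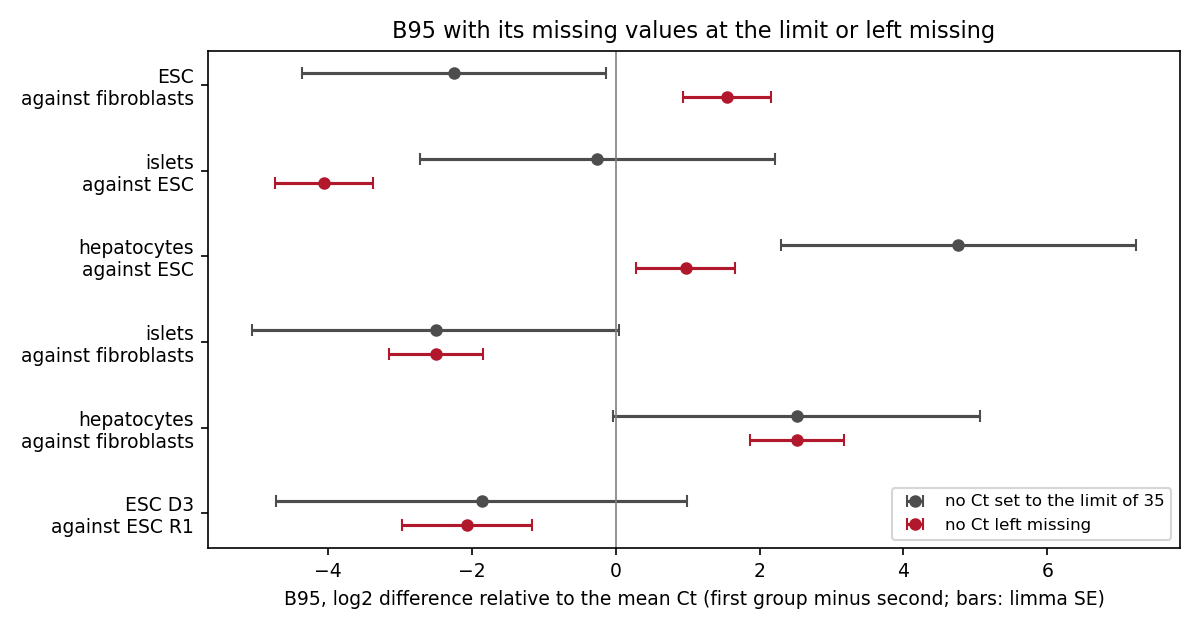
Log2 difference of B95 relative to the mean Ct, first-named group minus second, in 6 comparisons, with missing Ct values placed at the limit of 35 (grey) or left missing (red) and bars for the limma SE. ESC against fibroblasts stands at -2.25 with the limit and at 1.55 without it, while the 2 comparisons with fibroblasts that involve no missing value keep their size and have narrower bars when the ESC values are left missing.

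In order of its level, B95 over the samples with a Ct was at 5.62 ± 1.08 in untreated iPSC (SD, n = 5), at 5.16 in R1 (n = 2), at 5.12 ± 0.631 in treated clone 3 (SD, n = 2), at 5.10 ± 0.630 in hepatocytes (SD, n = 3), at 3.09 in D3 (n = 2), at 2.58 ± 0.725 in fibroblasts (SD, n = 5) and at 0.08 ± 0.639 in islets (SD, n = 3). The first 4 of these overlapped one another, and D3 overlapped fibroblasts. Untreated iPSC minus fibroblasts was 3.04 relative to the mean Ct and 0.0497 relative to RNU6, so that this difference changed with the reference.

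The missing values in treated clone 2 are part of what chose B95, so the following counts, in which these are 2 of its 4 gaps, are a description. Of 49 assays whose highest Ct in any sample was below 30, 12 lacked a Ct in at least 1 sample and 3 in at least 4, with B95 among them in part by its choice. The other 2 of these, B71 and B75, named after their values were seen, lacked a Ct only in samples of fibroblasts, islets and hepatocytes, while B95 lacked one in both treated clone 2 duplicates and in 1 replicate of each ESC line, whose other replicates read 21.3 to 25.2. Only B95 lacked a Ct in exactly these 4 samples. Plate B as a whole had 12 and 7 of 96 positions without a Ct in the treated clone 2 duplicates, 14 in ESC D3 replicate 3 and 12 in ESC R1 replicate 2, against 2 to 33 in the other 22 samples. The neighbouring positions B94 and B96 had a Ct in each of the 4 samples, with B94 at 27.3 and 27.7 and B96 at 26.7 and 27.5 in the treated clone 2 duplicates. Whether the missing values are absent RNA or failed reactions was not tested.

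Over all 26 samples no assay followed B95 closely. The highest Pearson r over 26 samples was 0.473 for C86, followed by 0.460 for C50 and 0.441 for B92, where the median over 267 assays was -0.04. Over the 17 samples not used to choose B95, which are among the 26 that picked these assays, the values were 0.255, 0.448 and 0.399. Over the samples where both assays were below 35 they were 0.313 (22 samples), -0.28 (17 samples) and 0.384 (22 samples). All 3 assays had a Ct in the 4 samples where B95 had none. Over the 6 ESC samples alone, of which 2 have B95 at the limit, r was 0.943 for C86, 0.50 for C50 and 0.563 for B92. C86 had its highest ESC Ct values in the 2 ESC samples without B95, at 27.7 in D3 replicate 3 and 29.3 in R1 replicate 2, against 24.8 to 26.97 in the other 4. C86 read 25.3 and 25.2 in treated clone 3 and 28.5 and 27.5 in treated clone 2, and C50 read 31.9 and 30.8 in treated clone 3 and 39.97 and 37.7 in treated clone 2. Both were thus weaker in the treated clone in which B95 had no Ct. They were picked by their likeness to B95 over samples that include these, so their values here and in ESC are a description. The mean Ct of set C, to which both belong, was itself higher in treated clone 2, at 25.6, than in treated clone 3, at 24.6. C61 and B95 themselves had an r of -0.21 over 26 samples.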

How the data were processed

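Raw threshold cycles (Ct, in PCR cycles) from TaqMan stem-loop RT-qPCR were used as deposited by the authors, for 315 assay positions on 4 lettered plates in 26 samples. The labels' protocols state 303 miRNAs, an input of 5 ng RNA per reverse transcription, 40 PCR cycles and RNU6 as normalizer. For the threshold setting and software, the sources used here give nothing. The second deposited table holds the authors' differences of mean normalized Ct, on a log2 scale. Per the file headers it holds fold changes, but a positive value there stands for less RNA in the group named first.

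From that table the RNU6 Ct of 20 samples was recovered by least squares, up to a constant, with a value for each position set (A with B, C, D; largest residual 4.0e-09 cycles). The constant differs between iPSC with fibroblasts and islets with hepatocytes, and no value could be recovered for ESC. RNU6 was the reference for hepatocytes against islets. The other tests used the mean Ct of the assays below 35 in all 26 samples, per position set (87, 26 and 9 assays). Subtracting the assay Ct from the reference Ct gave log2 expression, after missing values and those over 35 were replaced by 35. The filter asked for a Ct below 35 in 50% or more of one group's samples. All assays were fitted with limma 3.58.1 (R 4.3.3) on the 17 samples that the choice of C61 and B95 did not use, or on the 11 of these with RNU6, with Benjamini-Hochberg adjustment per comparison (threshold 0.05). The fit and the recovery were tested on simulated data, where hepatocytes against islets relative to RNU6 recovered very few of the large differences put in and the other comparisons most of them, so a p that misses the threshold there says little. Replicate numbers were not taken to pair samples. Tables and plots were made with Python 3.11.15, numpy 2.4.6, pandas 2.3.3 and matplotlib 3.10.9.

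The assays named are C61, B95, the 3 assays of highest Pearson r with each, and their plate neighbours. Other assays named were chosen after their values were seen. The members and lists were chosen with earlier results of these data known. The number of samples limits the precision, and the files give no technical replicates.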

Additional observations from a re-analysis of the deposited data

How the results depend on the processing

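Setting B95's missing values aside gave 1.55 for ESC against fibroblasts, the opposite sign, -4.05 for islets against ESC, and the same -2.50 and 2.52 for islets and hepatocytes against fibroblasts, now past the threshold. Those 2 also passed with the groups compared alone and by exact permutation (-2.50 and 2.52). Hepatocytes against islets for B95 passed relative to the mean Ct (5.02) and with quantile normalization (3.94). C61 in hepatocytes against ESC did not pass with a limit of 32 (-1.08), and it could not be given with missing values left missing. Leaving out 1 sample moved B95 in hepatocytes against ESC between 3.10 and 5.92, and it passed without R1 replicate 3 (limma adjusted p = 0.0463). C61 in ESC against fibroblasts and in islets against ESC passed under every alternative that kept it with more than 1 sample per group. Since C61 passed the filter through ESC alone and the other group stood at the limit, this direction was fixed in advance. No p of C61 in this section is separate support for it. The filter that asked for a Ct below 35 in every sample removed it. With missing values left missing, it was 8.68 and -6.74. There only 1 fibroblast or 1 islet sample remained, with a Ct over 35 that was set to the limit.

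In this section, differences in raw Ct are given with the sign turned, so that a positive value means more RNA. For activin, C61 came to 8.62 relative to RNU6 and 6.51 in raw Ct. B95 came to -5.91 relative to RNU6, -5.64 also without treated clone 3 replicate 1, -6.22 in raw Ct, and -5.93 and -9.93 with limits of 32 and 40. It was -0.49 with missing values left missing, where clone 3 alone stood for treated cells. The clone difference of C61 was 8.20 relative to RNU6, 4.39 in raw Ct and 0.53 to 2.76 with 1 sample left out, and that of B95 was 10.84 and 18.84 with limits of 32 and 40. In iPSC against fibroblasts, C61 was 2.75 relative to RNU6 and 2.63 and 10.06 with limits of 32 and 40, and B95 was 0.0497 relative to RNU6. Leaving missing values missing in the iPSC comparisons, and leaving out treated clone 3 replicate 1 relative to RNU6, were chosen after seeing the data.

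With the replicate block, C61 in ESC against fibroblasts was 7.65 (limma adjusted p = 6.48e-06) and no call on C61 or B95 changed. The deviations of same-numbered samples had correlations of 0.03 to 0.07 in hepatocytes and islets and of -0.13 to 0.19 in D3 and R1. These few values cannot show whether same-numbered samples share an origin. Paired by clone, C61 under activin was 4.39. With assays kept only where all samples were below 35, there were 82, 42, 73, 89, 59 and 65 calls in the 6 comparisons with calls, in the place of 135, 95, 120, 159, 102 and 116. For hepatocytes against islets there were 61 with quantile normalization, 60 with a limit of 32 and 51 without islet replicate 3, and for islets against fibroblasts 64 without that replicate. A limit of 35 bounds what can be said of C61 in cells without a Ct.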

Other observations

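A second assay, C92, had no Ct in either treated clone 2 duplicate while it read below 30 in untreated clone 2 and in both clone 3 duplicates. C92 was named after its values were seen. It read 26.4 and 26.5 in treated clone 3 and 28.6 in untreated clone 2. Unlike B95, C92 also had no Ct in ESC D3 replicate 2 and fibroblast replicate 3, and had one in ESC D3 replicate 3 and ESC R1 replicate 2. With clone 3 in place of clone 2, 0 assays had this pattern. B95 shows the pattern by its choice, and the assays able to show it in each clone were not counted. These counts are thus a description and no trait of clone 2 can be read from them.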
